A study of Mus musculus with 10 samples.

Results

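The genes described here are those of Wnt signalling at and near the cell surface, with its nuclear end. They are the Wnt ligands, the genes for Wnt release, the Frizzled and Lrp receptors, and the secreted enhancers and inhibitors. Beta-catenin with its TCF/LEF partners and the feedback gene Axin2 complete the set. All were taken by gene symbol among protein-coding genes, which gave 53 of the 40503 genes in the table. RNA-seq was done on gonadal white fat, a visceral depot that lies along the female reproductive tract, from C57BL/6 females aged 12 weeks. The KO group was 5 mice with the inducible adipose-specific deletion of Med19 (Med19-iAKO), given tamoxifen at 100 mg/kg for 5 days and killed 14 days later. The WT group was 5 control mice of the same age, sex and strain. The sources do not say whether the controls carried the floxed alleles or received tamoxifen, nor which promoter drove the recombinase.

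Wnt proteins are lipid-modified secreted factors. In the canonical branch, a Wnt that bridges a Frizzled receptor and Lrp5 or Lrp6 keeps beta-catenin from being degraded, and beta-catenin then activates genes together with TCF/LEF factors in the nucleus. The pathway is known in fat for holding back adipocyte differentiation, with Wnt10b as the ligand most studied in that role, and secreted inhibitors such as the Sfrp proteins bind Wnts outside the cell.

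Med19 RNA did not separate the groups. Its level in RPKM (reads scaled to gene length and library size) was 6.79 ± 0.85 in KO-labelled and 6.70 ± 0.89 in WT animals (SD, n = 5 each; 2-sided exact permutation p = 0.881). The RNA of the deleted gene gave no check of the labels, so the word "KO-labelled" is used throughout. Reads assigned to genes numbered 15183069 to 20184471 in the KO-labelled libraries and 14444952 to 16190292 in the WT libraries. Adiponectin RNA (Adipoq), an adipocyte marker, measured 307 ± 42 RPKM in KO-labelled and 713 ± 99 RPKM in WT animals, so adipocyte RNA was present in both groups and lower in the KO-labelled one. In whole tissue, fewer cells of a type and less RNA per cell cannot be told apart. Of 10 adipocyte markers 9 passed the test as lower (summed level 5386 to 5649 RPKM in KO-labelled, 13269 to 19099 RPKM in WT). Of 14 fibroblast and adipose progenitor markers 5 passed as higher (1563 to 1889 RPKM in KO-labelled, 1184 to 1395 RPKM in WT), and no marker of either list was at 0. Of 7 neutrophil and monocyte markers 3 were higher (471 to 833 RPKM in KO-labelled, 205 to 385 RPKM in WT), again with none at 0. For comparison, 4.00% of all 17038 tested genes were called higher and 1.95% lower.

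In short, most of the Wnt genes that fat expressed did not pass the test for a difference between the groups. Whether their levels were equal was not tested. Of the 53 genes, 33 reached 0.5 RPKM in 5 or more libraries and were tested with limma, and 20 did not. Porcn and Sfrp4 were higher in the KO-labelled libraries at an adjusted p under 0.05, and no member was lower. That is 2 of 33, or 6.06%, against 5.95% of all 17038 tested genes (4.00% called higher and 1.95% called lower), so the share called was near the background. The split over all genes was 681 higher and 332 lower, and depended on scaling: it was 102 higher and 414 lower with median-ratio scaling and 149 higher and 392 lower with quantile normalization. At an unadjusted p under 0.05 there were 6 higher and 3 lower, 27.3% of the 33, where 24.7% of all tested genes passed. The median log2 change of the 33 was 0.09, the same as that of all tested genes, with 21 above 0 and 12 below. The share above 0 was 63.6% of the members and 68.7% of all tested genes. A log2 change here is KO-labelled minus WT on the log2(RPKM + 0.5) scale, which understates the change of low genes.

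**Figure D1:**
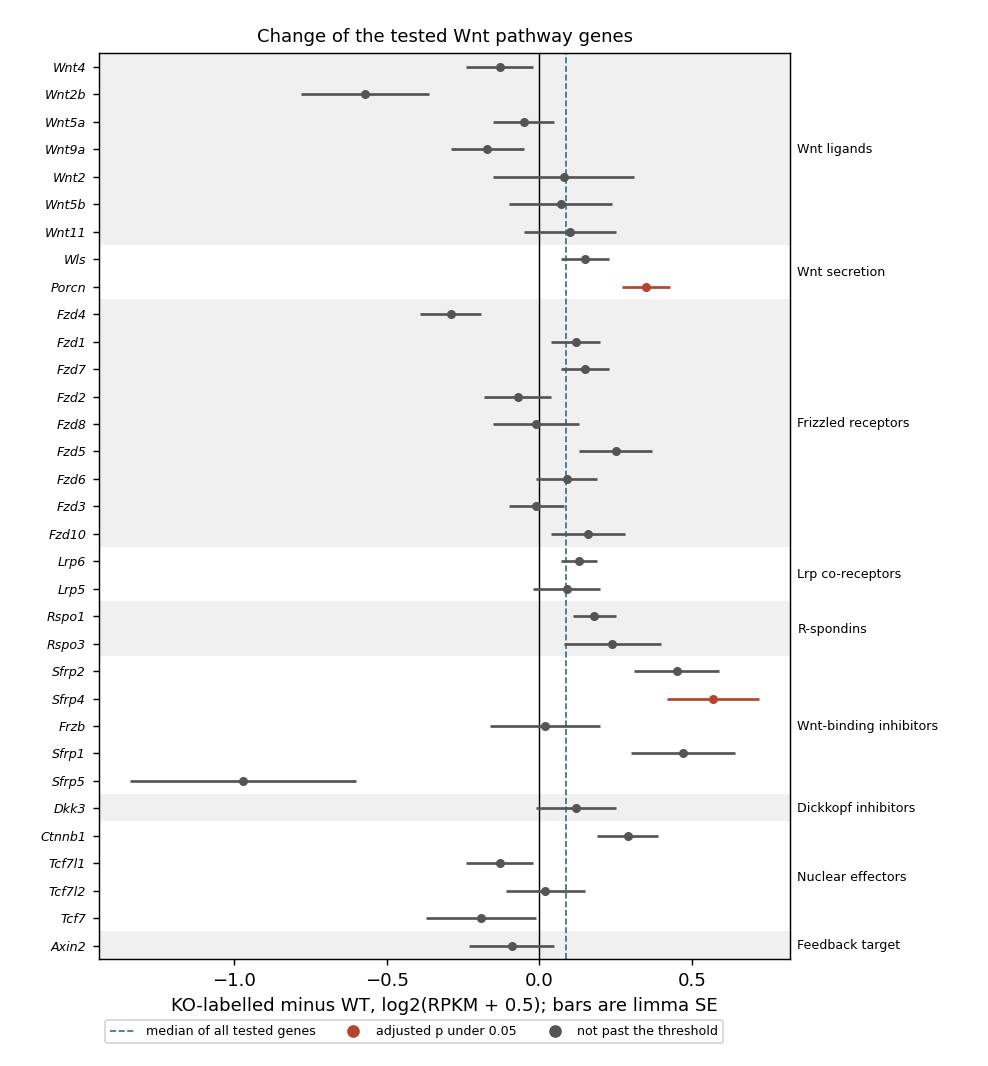
Log2 change (KO-labelled minus WT, log2(RPKM + 0.5)) of the 33 tested Wnt pathway genes, ordered by role and level, with limma's standard error as bars, 5 libraries a group. Porcn and Sfrp4, in red, are the genes with an adjusted p under 0.05, and the dashed line is the median of all tested genes, 0.09.

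Among the ligands, Wnt4 was the most abundant and made up 47.0% of the summed ligand level. Its values were 13.0, 16.1, 16.2, 16.4 and 11.9 RPKM in KO-labelled animals 1, 4, 7, 8 and 17, against 16.6, 15.7, 19.3, 14.3 and 14.4 RPKM in WT animals 2, 9, 19, 86 and 89. The ranges overlapped, and no difference passed the test (log2 change -0.13, SE 0.11, limma adjusted p = 0.542; 95% interval of the ratio 0.771 to 1.09). Wnt5a, a ligand best known for signalling without beta-catenin, was at 4.22 ± 0.71 RPKM in KO-labelled and 4.34 ± 0.22 RPKM in WT (SD, n = 5 each). The other tested ligands, Wnt9a, Wnt2, Wnt5b and Wnt11, lay between 0.552 and 3.34 RPKM in single libraries, and their groups overlapped.

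Wnt2b had the widest difference of the ligands. It is a canonical ligand related to Wnt2, and it was singled out after its values were seen. It was at 2.85, 5.24, 3.86, 4.09 and 6.88 RPKM in KO-labelled animals 1, 4, 7, 8 and 17, against 6.21, 7.00, 4.97, 7.82 and 8.48 RPKM in WT animals 2, 9, 19, 86 and 89. KO-labelled animals 4 and 17 lay above the lowest WT library, so the groups overlapped. The log2 change was -0.57 (SE 0.21) and missed the threshold (limma adjusted p = 0.120). The summed ligand level was 30.8 ± 3.8 RPKM in KO-labelled and 34.7 ± 1.3 RPKM in WT.

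The other 12 ligands of the 19 were below the level tested. Wnt10b, the ligand known for blocking adipogenesis, had 0 to 7 reads in each KO-labelled library and 0 to 7 in each WT library, in all 12 reads against 25. Wnt1, Wnt3, Wnt3a, Wnt7a, Wnt8a, Wnt10a and Wnt16 also had at most 7 reads in any library. Wnt6, Wnt7b, Wnt8b and Wnt9b had 1 to 26 reads per KO-labelled library and 5 to 19 per WT library. A difference in these genes was not detectable at this depth unless large.

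**Figure D2:**
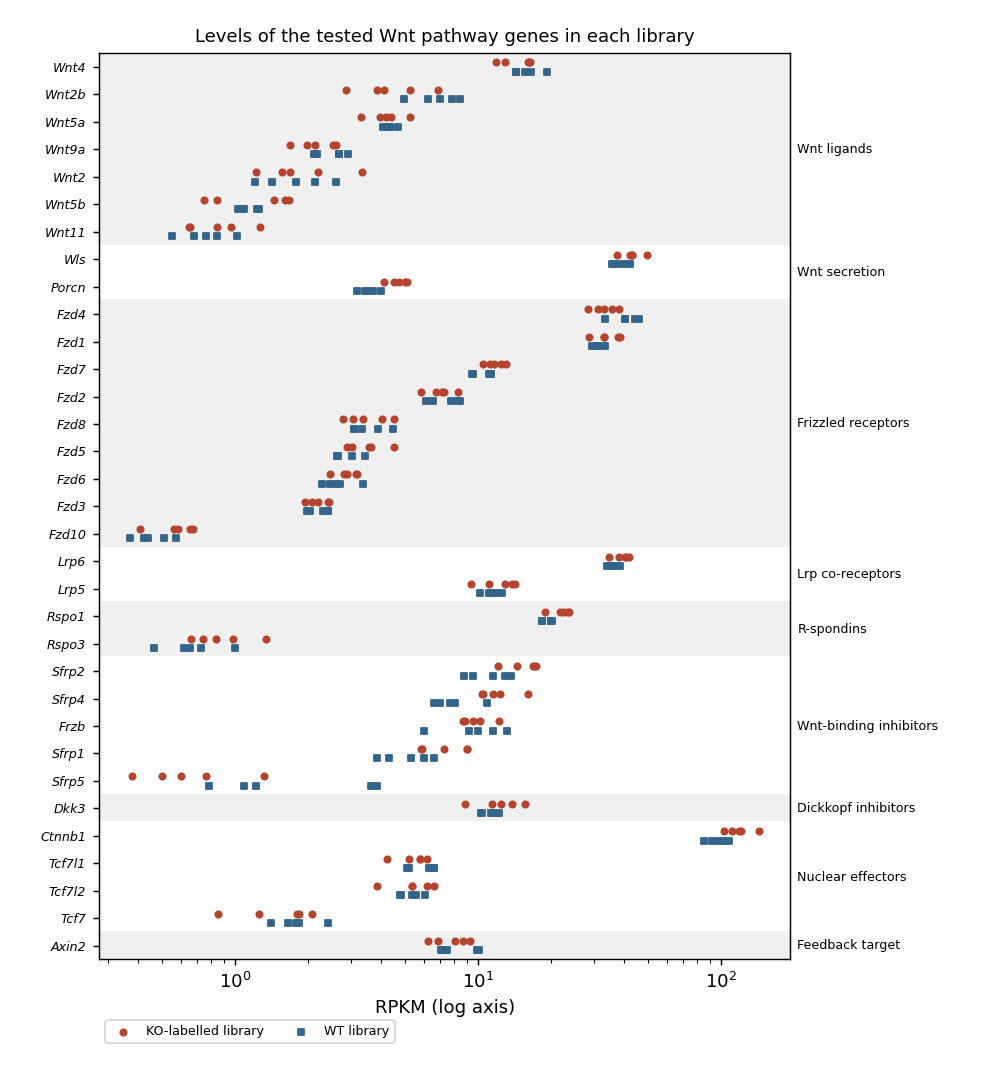
RPKM on a log axis of the 33 tested Wnt pathway genes in each of the 5 KO-labelled libraries (circles) and 5 WT libraries (squares), grouped by role. Only the Porcn rows do not overlap, and Ctnnb1 is the most abundant gene in both groups.

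Of the genes for Wnt release, Porcn was higher and Wls did not pass the test. Porcn encodes the acyltransferase that puts palmitoleate on Wnts, without which they are not secreted. It was at 4.50, 4.11, 4.74, 5.11 and 5.01 RPKM in KO-labelled animals 1, 4, 7, 8 and 17, against 3.45, 3.70, 3.19, 4.01 and 3.57 RPKM in WT animals 2, 9, 19, 86 and 89. Every KO-labelled library lay above every WT library, as in 6.96% of all tested genes, while no tested member had every KO-labelled library below every WT library, as 2.15% of all did. Porcn rose by 0.35 on the log2 scale (SE 0.08, limma adjusted p = 0.0318; 95% interval of the ratio 1.13 to 1.43). The call ended with median-ratio scaling (log2 change 0.26, adjusted p = 0.120) with quantile normalization (0.28, adjusted p = 0.0921) and with no filter on low genes (adjusted p = 0.0541). It also ended without KO-labelled animals 1, 7, 8 or 17 or WT animals 2, 9, 19 or 89, at adjusted p between 0.0533 and 0.0729.

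The protein-coding Porcn transcript ENSMUST00000089402 was at 4.38 ± 0.54 RPKM in KO-labelled and 2.69 ± 0.54 RPKM in WT, again without overlap. Its log2 change was 0.62 (SE 0.14), and it missed the threshold over all transcripts (limma adjusted p = 0.129). Wls, the carrier that takes lipidated Wnts to the cell surface, was at 42.3, 49.8, 37.5, 43.1 and 43.1 RPKM in KO-labelled animals 1, 4, 7, 8 and 17, against 35.6, 42.5, 38.3, 36.4 and 41.0 RPKM in WT animals 2, 9, 19, 86 and 89. These ranges overlapped (log2 change 0.15, SE 0.08, limma adjusted p = 0.282).

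Frizzled genes, which encode the seven-pass receptors, were led by Fzd4 and Fzd1. Fzd4 also binds Norrin, a ligand outside the Wnt family. It was at 33.0, 28.5, 35.6, 31.2 and 38.3 RPKM in KO-labelled animals 1, 4, 7, 8 and 17, against 40.4, 40.5, 33.5, 46.1 and 44.3 RPKM in WT animals 2, 9, 19, 86 and 89. WT animal 19 was inside the KO-labelled range and the other WT libraries were above it. The log2 change of -0.29 (SE 0.10) missed the threshold (limma adjusted p = 0.110; 95% interval of the ratio 0.698 to 0.954). Its transcript ENSMUST00000058755 was at 26.1 ± 2.3 RPKM in KO-labelled and 33.4 ± 2.7 RPKM in WT without overlap (limma adjusted p = 0.151).

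No Frizzled gene passed the test. Fzd1 was at 34.2 ± 4.0 RPKM in KO-labelled and 31.2 ± 1.4 RPKM in WT. Fzd7, Fzd2, Fzd8, Fzd5, Fzd6, Fzd3 and Fzd10 followed, with means over all libraries from 11.2 down to 0.519 RPKM. The 9 tested Frizzled genes had log2 changes from -0.29 to 0.25, and Fzd9 had at most 9 reads per library. Their summed level was 99.2 ± 5.6 RPKM in KO-labelled and 102 ± 5 RPKM in WT.

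The co-receptor Lrp6 was at 40.5, 34.8, 41.8, 38.3 and 40.7 RPKM in KO-labelled animals 1, 4, 7, 8 and 17, against 33.9, 36.9, 34.8, 35.1 and 38.4 RPKM in WT animals 2, 9, 19, 86 and 89. The groups overlapped (log2 change 0.13, SE 0.06, limma adjusted p = 0.246). Lrp5, its close relative, was at 12.3 ± 2.0 RPKM in KO-labelled and 11.4 ± 0.9 RPKM in WT (limma adjusted p = 0.677).

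R-spondins strengthen Wnt signals by keeping Frizzled and Lrp receptors at the surface. Rspo1 was the main one in this fat, at 18.9, 23.2, 21.8, 22.3 and 23.8 RPKM in KO-labelled animals 1, 4, 7, 8 and 17. In WT animals 2, 9, 19, 86 and 89 it was at 18.3, 20.3, 19.96, 19.98 and 18.3 RPKM. All KO-labelled libraries except that of animal 1 were above the WT range, and the difference missed the threshold (log2 change 0.18, SE 0.07, limma adjusted p = 0.143). Rspo3 was at 0.914 ± 0.269 RPKM in KO-labelled and 0.690 ± 0.195 RPKM in WT. Rspo2 and Rspo4 had at most 4 reads in any library.

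The inhibitors that bind Wnts directly gave the widest spread of changes. The secreted frizzled-related proteins carry a Frizzled-like cysteine-rich domain and take up Wnts outside the cell. Sfrp4 passed the test, Sfrp2 and Sfrp1 had higher means without passing, and Sfrp5 had a lower mean without passing. These 4 genes with Frzb and Wif1 summed to 45.8 ± 6.8 RPKM in KO-labelled and 36.6 ± 3.4 RPKM in WT, with overlapping ranges.

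Sfrp4 was at 16.1, 10.5, 12.3, 10.4 and 11.6 RPKM in KO-labelled animals 1, 4, 7, 8 and 17, against 6.99, 8.03, 7.66, 10.9 and 6.59 RPKM in WT animals 2, 9, 19, 86 and 89. WT animal 86 was above KO-labelled animals 4 and 8, and the other WT libraries were below all KO-labelled ones. Sfrp4 rose by 0.57 on the log2 scale (SE 0.15, limma adjusted p = 0.0488; 95% interval of the ratio 1.18 to 1.86). The call ended with either scaling (log2 change 0.48 by median ratio, 0.49 by quantiles), with no filter (adjusted p = 0.0859) and with eBayes without trend and robust (adjusted p = 0.0615). It also ended when any library other than that of WT animal 86 was left out, at adjusted p from 0.0502 to 0.1.

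Sfrp2, the most abundant of these inhibitors, was at 16.9, 14.4, 17.4, 12.1 and 17.0 RPKM in KO-labelled animals 1, 4, 7, 8 and 17. In WT animals 2, 9, 19, 86 and 89 it was at 9.57, 8.74, 11.5, 13.7 and 12.9 RPKM. KO-labelled animal 8 fell inside the WT range. The log2 change was 0.45 (SE 0.14, limma adjusted p = 0.0760), and limma's voom on reads recovered from the RPKM values put it just past the threshold (adjusted p = 0.046).

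Sfrp1 and Sfrp5 were singled out after their values were seen. Sfrp1 was at 9.04, 7.26, 5.90, 5.85 and 9.01 RPKM in KO-labelled animals 1, 4, 7, 8 and 17, against 4.31, 3.83, 6.01, 6.60 and 5.30 RPKM in WT animals 2, 9, 19, 86 and 89. KO-labelled animals 7 and 8 were within the WT range (log2 change 0.47, SE 0.17, limma adjusted p = 0.115). Beside these values, the summed level of the fibroblast and progenitor markers given above was higher in every KO-labelled library. Of the 14 single markers 5 passed the test. Pdgfra, 1 of the 14, was at 85.4 ± 11.6 RPKM in KO-labelled and 69.8 ± 4.5 RPKM in WT. Its groups overlapped, and it did not pass (limma adjusted p = 0.0996). The part of this list in the Sfrp1 values was not tested.

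Sfrp5, an inhibitor known as a product of adipocytes, was at 1.32, 0.599, 0.499, 0.378 and 0.757 RPKM in KO-labelled animals 1, 4, 7, 8 and 17. In WT animals 2, 9, 19, 86 and 89 it was at 3.63, 1.22, 0.779, 1.09 and 3.84 RPKM. WT animals 2 and 89 were far above all other libraries, and KO-labelled animal 1 was above WT animals 9, 19 and 86. The WT coefficient of variation, 70.6%, was the highest of the 33 genes in either group. The log2 change of -0.97 (SE 0.37) was the largest in size among the members and missed the threshold (limma adjusted p = 0.139; 11 to 38 reads in KO-labelled and 24 to 110 in WT libraries). The summed level of the adipocyte marker list was lower in every KO-labelled library, and its part in this value was not tested. Frzb, also known as Sfrp3, was at 9.92 ± 1.43 RPKM in KO-labelled and 10.01 ± 2.71 RPKM in WT, and Wif1 had 1 read in 1 library.

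**Figure D3:**
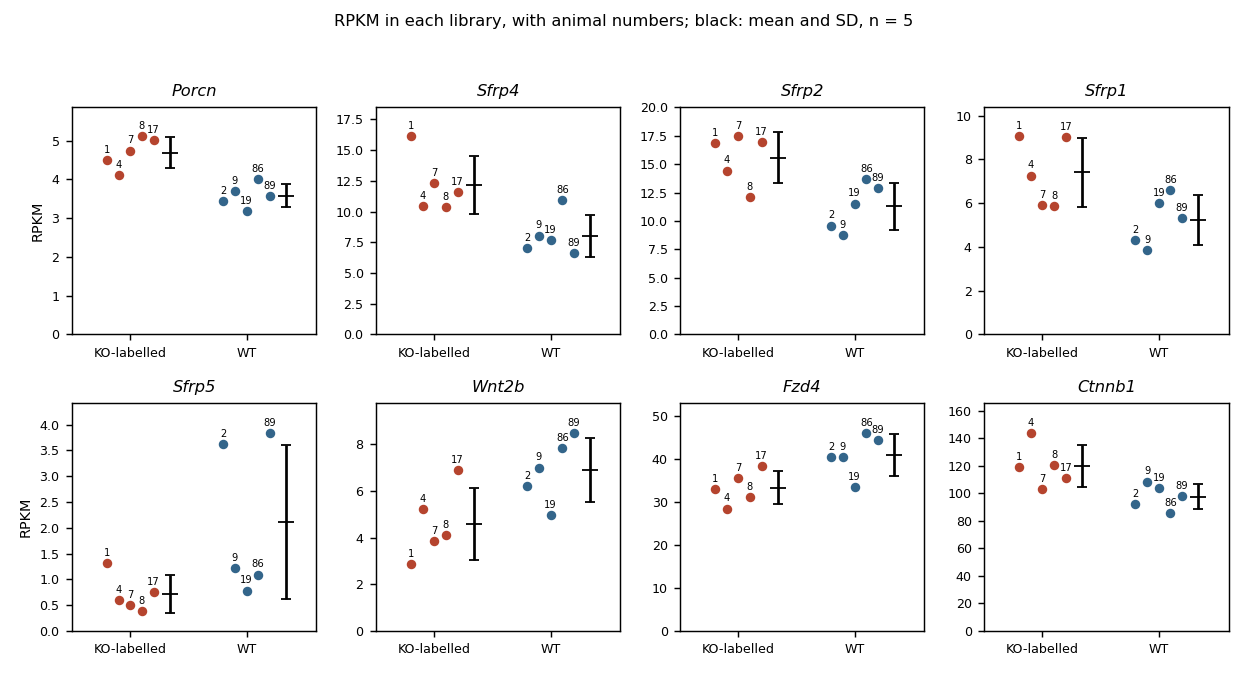
RPKM of 8 Wnt pathway genes in each library, labelled with the animal number, with mean and SD in black (n = 5 each). Porcn alone has no overlap between the groups, and Sfrp5 is high in WT animals 2 and 89, at 3.63 and 3.84 RPKM.

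The promoters of Sfrp2, with a higher mean, and Sfrp5, with a lower one, are shown with that of Axin2, the usual readout of the pathway, so that the relatives can be compared. Each run is the 250 bases before the start of the gene, 5′ to 3′ on the gene's strand, from RefSeq on GRCm38.p6 (Sfrp2 chr3:83766071-83766320, plus strand; Sfrp5 chr19:42202253-42202502, minus strand; Axin2 chr11:108920099-108920348, plus strand). Capitals mark the GC box, GGGCGG or its reverse complement, a motif chosen after the sequences were seen.
Sfrp2: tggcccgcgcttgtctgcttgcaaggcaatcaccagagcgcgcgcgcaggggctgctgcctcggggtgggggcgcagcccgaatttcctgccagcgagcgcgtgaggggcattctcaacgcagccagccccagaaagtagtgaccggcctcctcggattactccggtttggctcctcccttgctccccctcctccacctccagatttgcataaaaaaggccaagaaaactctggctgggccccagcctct
Sfrp5: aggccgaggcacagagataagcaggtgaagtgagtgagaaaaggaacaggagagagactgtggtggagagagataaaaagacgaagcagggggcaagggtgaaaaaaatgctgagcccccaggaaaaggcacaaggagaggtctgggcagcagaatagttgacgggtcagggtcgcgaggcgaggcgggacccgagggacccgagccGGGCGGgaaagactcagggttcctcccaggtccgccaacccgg
Axin2: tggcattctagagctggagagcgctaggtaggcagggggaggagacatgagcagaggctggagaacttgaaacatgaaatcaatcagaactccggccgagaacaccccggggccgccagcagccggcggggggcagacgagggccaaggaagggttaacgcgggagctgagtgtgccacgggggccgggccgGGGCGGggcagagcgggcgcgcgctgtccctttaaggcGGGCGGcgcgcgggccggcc
The Sfrp2 run has no GC box, that of Sfrp5 has 1 and that of Axin2 has 2. The RefSeq promoter table held 36 of the 53 genes by symbol, with 45 promoters. In the window from 250 bases before to 50 after the start, a GC box on either strand was in 77.8% of these 45 and in 35.7% of all 32851 promoters. Some genes have more than 1 promoter, and 29 of the 36 genes had the box. The printed genes, from which the motif was chosen, are among the 36, so these shares are no test. The TCF/LEF core CTTTGA, on either strand, was in 13.3% of the 45 and 16.0% of all, and in none of the 3 runs printed. The longer CTTTGAT, which contains that core, was in 4.44% and 3.73%. A match is a description of letters and not of binding.

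Dickkopf proteins block Lrp5 and Lrp6, except Dkk3, which is not known to bind them as the others do. Dkk3 was the one member expressed, at 11.5, 15.6, 12.4, 8.86 and 13.9 RPKM in KO-labelled animals 1, 4, 7, 8 and 17, against 10.3, 11.9, 12.2, 11.3 and 10.4 RPKM in WT animals 2, 9, 19, 86 and 89. The KO-labelled values lay on both sides of the WT range (log2 change 0.12, SE 0.13, limma adjusted p = 0.605). Dkk2 had 13 to 26 reads per KO-labelled library and 6 to 20 per WT library, and Dkk1 and Dkk4 had at most 3.

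Ctnnb1, the gene of beta-catenin, was the most abundant member. It was at 119, 144, 103, 121 and 111 RPKM in KO-labelled animals 1, 4, 7, 8 and 17, against 92.3, 108, 103, 85.6 and 98.1 RPKM in WT animals 2, 9, 19, 86 and 89. KO-labelled animal 7 was inside the WT range and the other KO-labelled libraries were above it. The log2 change was 0.29 (SE 0.10, limma adjusted p = 0.106; 95% interval of the ratio 1.05 to 1.42). RNA for beta-catenin is not a measure of its protein, which the pathway controls by degradation. Of the DNA-binding partners, Tcf7l1 was at 5.43 ± 0.75 RPKM in KO-labelled and 5.96 ± 0.76 RPKM in WT, and Tcf7l2 at 5.47 ± 1.06 RPKM in KO-labelled and 5.31 ± 0.54 RPKM in WT. Tcf7 was at 1.57 ± 0.50 RPKM in KO-labelled and 1.82 ± 0.37 RPKM in WT. Lef1 had 18 to 27 reads per KO-labelled library and 15 to 24 per WT library.

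Axin2 encodes a scaffold of the beta-catenin destruction complex and is switched on by the pathway itself, so it serves as a readout. It was at 6.25, 8.02, 6.86, 9.28 and 8.68 RPKM in KO-labelled animals 1, 4, 7, 8 and 17, against 7.07, 10.1, 7.46, 9.91 and 7.16 RPKM in WT animals 2, 9, 19, 86 and 89. The ranges overlapped over most of their length. The log2 change was -0.09 (SE 0.14, limma adjusted p = 0.750). The 95% interval of the ratio, 0.766 to 1.16, held both a fall and a rise.

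At the level of transcripts, 146 were listed for the 53 genes and 73 were tested. By limma 0 of the 73 passed, against 0.544% of all 44475 tested transcripts. Of the 73, 9 had an unadjusted p under 0.05. The share of all tested transcripts under that value was not taken, so this count has no background. Of the 75 at or above 0.5 RPKM in a group, the groups did not overlap in 2, those of Porcn and Fzd4 named above, and they did not in 2.87% of all tested transcripts. Ctnnb1 was listed with 12 transcripts at or above 0.5 RPKM in a group. Its transcript ENSMUST00000178812 was at 83.6 RPKM in KO-labelled animal 8 and at most 4.39 RPKM in every other library. Ctnnb1 as a gene was at 121 RPKM in that animal, inside the KO-labelled range of 103 to 144 RPKM. In the same library ENSMUST00000154356 and ENSMUST00000007130 had their lowest values, 23.7 and 3.39 RPKM. ENSMUST00000170729 and ENSMUST00000145093 had their highest there, 43.6 and 34.8 RPKM. How reads were shared out among the transcripts was not tested.

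Other genes of the pathway were taken from 6 lists, chosen with earlier results of these data known. The shares called in them are therefore no test. Over all tested genes 5.95% were called in either direction, and the median log2 change was 0.09. Of 25 tested co-receptors and regulators at the cell surface, 2 were lower and 0 higher (8.00%), with a median log2 change of 0.07. Tspan12, a tetraspanin partner of Fzd4 in Norrin signalling, was at 8.97, 14.2, 10.8, 9.61 and 12.7 RPKM in KO-labelled animals 1, 4, 7, 8 and 17, against 14.5, 17.8, 17.7, 23.0 and 16.5 RPKM in WT animals 2, 9, 19, 86 and 89. It fell by 0.65 (SE 0.14, limma adjusted p = 0.0306), a call lost with no filter and without KO-labelled animals 1, 7 or 8 or WT animals 9, 19, 86 or 89, at adjusted p from 0.055 to 0.0761. Apcdd1, a membrane inhibitor of Wnt signalling that the pathway also induces, was at 29.9 ± 3.6 RPKM in KO-labelled and 43.4 ± 5.7 RPKM in WT. It fell by 0.53 (SE 0.11, limma adjusted p = 0.0217), a call lost without WT animal 89 (adjusted p = 0.0505). Both genes were without overlap, as are 9.11% of all tested genes in either direction. Of 8 endothelial markers 1 was lower (summed 113 to 158 RPKM in KO-labelled, 136 to 159 RPKM in WT, none at 0), and of 8 pericyte and smooth muscle markers 2 were lower (198 to 245 RPKM in KO-labelled, 213 to 294 RPKM in WT, none at 0). Over all tested genes 1.95% were called lower, and the part of either list in these values was not tested.

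Of 33 tested cytoplasmic genes, 1 was lower and 1 higher (6.06%, against 5.95% of all tested genes), with a median log2 change of 0.08. Ppp2r5a, a regulatory subunit of protein phosphatase 2A, was at 45.5 ± 6.1 RPKM in KO-labelled and 86.3 ± 13.8 RPKM in WT and fell by 0.91 (SE 0.12, limma adjusted p = 0.00280). Csnk1a1, the casein kinase that primes beta-catenin for degradation, was at 35.4 ± 1.2 RPKM in KO-labelled and 30.7 ± 1.25 RPKM in WT and rose by 0.21 (SE 0.05, limma adjusted p = 0.0412). Of 29 nuclear cofactors, 1 was higher (3.45%; median log2 change 0.08), Tbl1xr1, which works with beta-catenin and in corepressor complexes. It was at 20.7 ± 0.92 RPKM in KO-labelled and 17.0 ± 1.07 RPKM in WT (log2 change 0.28, SE 0.06, limma adjusted p = 0.0230). The most abundant cofactors, Aes and Ctbp1, were at 129 ± 13 and 61.7 ± 6.4 RPKM in KO-labelled and 119 ± 4 and 60.3 ± 3.7 RPKM in WT. The calls of Csnk1a1 and Tbl1xr1 ended with either scaling, and also without 9 of the 10 libraries for Csnk1a1 (all but WT animal 9) and without KO-labelled animals 1, 8 or 17 or WT animal 86 for Tbl1xr1.

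Of 18 tested genes commonly used as beta-catenin targets, 2 were higher and 1 lower (16.7%, against 5.95% of all tested genes). Their median log2 change was 0.13, against 0.09 over all tested genes. The list was chosen with earlier results of these data known, so its share is no test. Wisp2, a secreted matricellular protein gene, was at 5.09 ± 1.92 RPKM in KO-labelled and 1.29 ± 0.25 RPKM in WT (log2 change 1.58, SE 0.23, limma adjusted p = 0.00426). Tiam1, an exchange factor for Rac, was at 5.33 ± 0.29 RPKM in KO-labelled and 4.20 ± 0.41 RPKM in WT and rose by 0.31 (SE 0.07, limma adjusted p = 0.0360), and Apcdd1, which is also in the surface list, was the fall. The call of Tiam1 ended with either scaling, with no filter, and without KO-labelled animals 1, 7, 8 or 17 or WT animals 9, 86 or 89. The targets thus held genes called in both directions, beside an Axin2 that was not called.

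The largest fall among the called genes of these lists was that of Celsr2, a seven-pass cadherin of planar cell polarity. It was at 0.571, 0.782, 0.552, 0.714 and 0.810 RPKM in KO-labelled animals 1, 4, 7, 8 and 17, against 2.33, 3.88, 3.72, 3.35 and 3.39 RPKM in WT animals 2, 9, 19, 86 and 89. The groups were far apart, and Celsr2 fell by 1.68 on the log2 scale (SE 0.13, limma adjusted p = 5.65e-05). It was the 1 call among 28 tested genes of the polarity and calcium branch (3.57%; median log2 change 0.10), whose most abundant members Rhoa and Rac1 were at 100.3 ± 5.1 and 75.1 ± 8.1 RPKM in KO-labelled and 91.5 ± 8.0 and 66.3 ± 6.5 RPKM in WT. Of 19 tested regulators of adipogenesis set against Wnt signalling, 4 were lower and 1 higher (26.3%, against 5.95% of all tested genes). Their median log2 change was -0.11, and this list too was chosen with earlier results known, so its share is no test. Pparg, a nuclear receptor needed to form and keep adipocytes, was at 29.7 ± 2.2 RPKM in KO-labelled and 65.0 ± 9.96 RPKM in WT and fell by 1.11 (SE 0.11). Srebf1, a regulator of lipid synthesis, was at 40.7 ± 4.3 RPKM in KO-labelled and 72.9 ± 22.8 RPKM in WT and fell by 0.79. Cebpa, a partner of Pparg in adipocytes, was at 112 ± 26 RPKM in KO-labelled and 187 ± 25 RPKM in WT and fell by 0.77. Foxc2, a forkhead factor gene, was low, at 0.372 ± 0.106 RPKM in KO-labelled and 1.00 ± 0.13 RPKM in WT. It also fell by 0.79 with the pseudocount of 0.5, by 0.54 with 1, by 1.24 with 0.1 and by 1.46 with voom. Id2, an inhibitor of basic helix-loop-helix factors, was at 26.0 ± 2.9 RPKM in KO-labelled and 19.6 ± 2.8 RPKM in WT and rose by 0.41 (SE 0.10, limma adjusted p = 0.0481), a call that ended with either scaling. With no filter the calls of Srebf1, Cebpa and Id2 ended. They also ended without single libraries, those of KO-labelled animals 1, 7, 8 or 17 or WT animals 19 or 89 for Srebf1, KO-labelled animals 1 or 17 or WT animals 2, 9, 86 or 89 for Cebpa, and any but KO-labelled animal 4 and WT animal 2 for Id2. The summed level of the adipocyte marker list was lower in every KO-labelled library, and its part in these values was not tested.

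**Figure D4:**
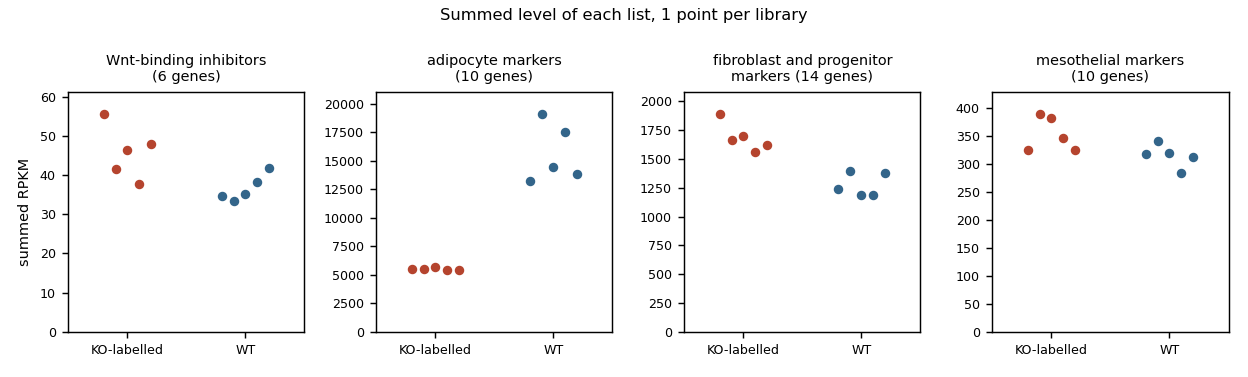
Summed RPKM per library of the 6 Wnt-binding inhibitors and of marker lists for adipocytes, fibroblasts and progenitors, and mesothelium, 5 KO-labelled (left) and 5 WT (right) libraries each. The adipocyte list is lower and the progenitor list higher in every KO-labelled library, and the inhibitors and mesothelial list overlap between the groups.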

How the data were processed

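RNA-seq of polyA RNA from 5 KO and 5 WT animals was analysed. The authors deposited RPKM per gene and per transcript, and the unit of the transcript table is known from its name only. Tools named by the submitters' processing notes are STAR, featureCounts, Subread and bcl2fastq. The genome build, annotation, filters and strand setting of the authors are not stated there. Exons of 9 tested genes overlap another gene in GENCODE M21, among them Sfrp2, Ctnnb1 and Axin2, nearly always on the other strand, and whether counting kept such reads apart is not known.

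Repeated rows held equal values and were used once. Log2 of RPKM plus 0.5 was fitted over 17038 genes, those reaching 0.5 RPKM in 5 or more libraries, with limma 3.58.1 in R 4.3.3 (eBayes, trend and robust, statmod 1.5.0, 2-sided). Calls needed an adjusted p (Benjamini-Hochberg, over all tested genes) under 0.05, and all adjusted p-values are limma's. Transcripts were fitted alike. Within a gene, deposited RPKM values were whole multiples of 1 step, which gave whole reads for 100% of the 25122 genes above 0 in 3 or more libraries (tolerance 0.001 reads). These reads gave depth and the voom alternative.

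Members and lists were chosen with earlier results of these data known. Values in every library are given for called members, for those without overlap and for the most abundant of each role. From each list the text names up to 6 called genes, most by mean and SD, or the 2 most abundant where fewer than 2 were called. Sfrp1, Sfrp5 and Wnt2b, and the Ctnnb1 transcripts, were added after their values were seen. Labels do not say how animals were allotted or whether libraries shared a batch.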

Additional observations from a re-analysis of the deposited data

How the results depend on the processing

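The 14 Wnt genes with values in every library kept their direction in each of the 18 alternatives, and so did the other pathway genes named with a change, except that Foxc2 could not be fitted with a filter at 1 RPKM and kept its direction in the other 17. Ctbp1, given by its levels, had a log2 change of 0.03, which was -0.06 with median-ratio scaling, -0.05 with quantile normalization and -0.02 to 0.07 without 1 library (-0.02 without KO-labelled animal 4). The 2 Wnt genes called higher became 0 with no filter, median-ratio scaling and quantile normalization, 1 with eBayes without trend and robust (Porcn), and 0 to 2 when a library was left out. Sfrp2 joined by voom, the 1 member gained. No Wnt gene was called lower and no Wnt transcript was called in any of these runs. Porcn was called in 7 and Sfrp4 in 5 of the 18.

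Over all genes, the 681 called higher became 292 with no filter, 102 with median-ratio scaling, 149 with quantile normalization and 192 to 693 without 1 library. The 332 called lower ranged from 205 to 313 without 1 library. All tested genes had a median change of 0.089 (log2), and of 0.008 with median-ratio scaling. With no filter the lists had 1 surface gene lower, 0 cytoplasmic and 1 target gene higher, and 0 adipogenic regulators higher and 2 lower. With median-ratio scaling and with quantile normalization alike, 0 cytoplasmic genes, 0 nuclear cofactors, 1 target and 0 adipogenic regulators were higher, and the 4 adipogenic regulators called lower became 6 (5 with voom). eBayes without trend and robust left 0 cytoplasmic genes and 0 adipogenic regulators higher, and a filter at 1 RPKM gave 2 cofactors higher. Without 1 library, genes called higher numbered 0 to 1 (cytoplasmic, cofactors, polarity, adipogenic) and 1 to 2 (targets), and those lower 0 to 2 (surface), 0 to 1 (targets) and 2 to 5 (adipogenic). The calls of Celsr2, Ppp2r5a, Wisp2 and Pparg held in all 18.

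The Med19 difference, 0.093 RPKM, was -0.205 without KO-labelled animal 1, -0.054 without WT animal 19 and -0.177 without WT animal 89, within a range of -0.205 to 0.398. No paired analysis was made because the labels give no pairing of KO-labelled with WT animals. Whether a pairing existed is not known. Depth limits the 20 untested members, which had at most 27 reads in a library.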

Other observations

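Wnt7b, below the level tested and picked after its values were seen, was at 0.0591 to 0.157 RPKM in the KO-labelled libraries and 0.172 to 0.256 RPKM in WT without overlap, from 4 to 14 reads against 11 to 18. Wnt9b was at 0.204 to 0.332 RPKM in KO-labelled and 0.0819 to 0.287 RPKM in WT, in all 103 reads against 51. Both were picked from 20 untested members and carry too few reads for a fold change to be given. Of all tested genes 9.11% were without overlap in either direction, and no such share was taken among genes this low.

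KO-labelled animal 4 had the highest or lowest value of the 10 libraries in 10 of the 33 tested members, 30.3%, where it had 26.6% over all tested genes. The widest gaps were those of KO-labelled animal 17, at 24.2% of the members and 14.5% of all tested genes, and WT animal 86, at 12.1% and 21.9%. KO-labelled animal 4 was lowest in Tcf7, Tcf7l1, Tcf7l2 and Fzd4 and highest in Ctnnb1, Wls, Lrp5, Dkk3, Wnt2 and Wnt11. The median coefficient of variation of the 33 genes was 16.5% among the KO-labelled and 12.9% among the WT libraries. No single highest or lowest value of a tested member stood apart from its group by Dixon's test, in 66 groups of 5. The test takes 1 value at a time, so 2 close high values in a group hide each other. It could not flag WT animals 2 and 89 for Sfrp5, at 3.63 and 3.84 RPKM.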
